A study of Mus musculus with 4 samples.

Results

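The genes *Scn1a*, *Scn2a*, *Scn3a* and *Scn8a* encode the pore-forming alpha subunits of the voltage-gated sodium channels of central neurons. They were measured in brain RNAseq libraries from mice lacking PTBP2, the neuronal polypyrimidine tract binding protein. The unit of the data is the exon trio, a middle exon with an upstream and a downstream neighbor, for which the program SpliceTrap gave a percent spliced in (PSI) and the reads on the 3 possible junctions. Trios were assigned to genes by chromosome, strand, middle exon length and both intron lengths, matched to GENCODE M21 transcripts. This gave 109 trios of 228333 in the tables, with 25 for *Scn1a*, 26 for *Scn2a*, 28 for *Scn3a* and 30 for *Scn8a*. They cover 102 distinct middle exons, of which 100 are coding and 62 have a length divisible by 3. The database behind the tables labels 105 trios constitutive and only 4 cassette.

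There were 4 libraries, 1 per group, from mice of the strain labelled Mixed C56Bl/6:129S2 background. The NesKO library came from whole brains at embryonic day 18 (E18), in which Cre under the nestin promoter deletes the floxed exon 4 of *Ptbp2* in neural progenitors and their progeny, and the E18 control from wild-type littermates, each from 2 brains. The EmxKO library came from the cortex of 1 animal at postnatal day 1 (P1), in which Cre under the *Emx1* promoter deletes the same exon in the dorsal forebrain lineage, leaving interneurons and other cells of ventral or non-neural origin unrecombined, and its control from a cortex labelled WT. The E18 libraries were not strand specific and the P1 libraries were, so stage, tissue, Cre line and protocol cannot be told apart between the stages. With 1 library per group there was no replicate check, and every test below compares libraries, not genotypes.

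The targeted exon checks the labels. *Ptbp2* exon 4 was skipped in 100% of junction reads in NesKO (95% Wilson interval from 98.5%) and in 0.225% in the E18 WT. It was skipped in 82.6% in EmxKO (79.9% to 85.1%) and in 31.5% in the P1 library labelled WT (29.5% to 33.7%). The P1 library labelled WT therefore held 604 reads that join exon 3 to exon 5, which goes against its label in part, and every P1 difference below is taken against that library. Total junction reads were 49445721 in NesKO, 51267564 in the E18 WT, 84793098 in EmxKO and 85073560 in the P1 library labelled WT. Of the fixed marker lists, *Hoxb3* and *Hoxc4*, which mark hindbrain and spinal levels, had no reads in either P1 cortex library. The 3 skeletal muscle markers summed to between 0.0233 and 0.0976 reads per junction, scaled to 1000000 junction reads, in all 4 libraries.

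Sodium channel alpha subunits fold into a ring of homologous domains whose charged S4 segments sense voltage, and they start the action potential at the axon initial segment. *Scn3a* is known as the predominantly embryonic form, *Scn2a* as the early axonal form and *Scn8a* as the form that takes over mature initial segments and nodes, while *Scn1a* is best known from inhibitory interneurons. Several of these genes carry tandem, mutually exclusive copies of exon 5, called 5N (neonatal) and 5A (adult), which encode part of the voltage sensor region of the first domain. *Scn8a* also has alternative versions of exon 18, of which 18A makes the full-length channel and 18N carries an early stop codon.

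The adult copies of exon 5 are shown with the single *Scn1a* exon because they show how alike the genes are at this exon. The downstream copy of a pair was taken as 5A and the upstream copy as 5N. Bases that are not the same in all 4 exons are in capitals, and positions are GRCm38.

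Scn1a exon 5, chr2:66332207-66332298, minus strand, with no second copy annotated: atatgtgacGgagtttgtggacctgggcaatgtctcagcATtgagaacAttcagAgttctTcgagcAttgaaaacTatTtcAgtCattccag
Scn2a exon 5A, chr2:65682690-65682781, plus strand: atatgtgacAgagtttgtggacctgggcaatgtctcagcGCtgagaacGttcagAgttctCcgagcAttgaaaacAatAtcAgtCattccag
Scn3a exon 5A, chr2:65525695-65525786, minus strand: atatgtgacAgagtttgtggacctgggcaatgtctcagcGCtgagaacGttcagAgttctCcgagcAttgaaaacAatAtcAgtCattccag
Scn8a exon 5A, chr15:100959603-100959694, plus strand: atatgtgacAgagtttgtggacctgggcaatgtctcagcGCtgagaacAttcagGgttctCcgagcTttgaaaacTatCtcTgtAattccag

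Each exon is 92 nt long, and 11 of its bases varied among the genes. *Scn2a* 5A and *Scn3a* 5A differed at 0 bases. *Scn8a* 5A differed from either at 7 bases, and the *Scn1a* exon differed from the 5A copies of *Scn2a*, *Scn3a* and *Scn8a* at 7, 7 and 9.

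Only *Scn8a* had both copies among its trios, with the same outer exons. Of the other pairs, *Scn2a* had a trio for 5N alone and *Scn3a* a trio for 5A alone, so their shares were not analysed here. The upstream and downstream junctions of *Scn8a* 5N had 74 and 39 reads in NesKO, 45 and 52 in the E18 WT, 92 and 83 in EmxKO, and 64 and 45 in the P1 library labelled WT. Those of 5A had 79 and 95, 113 and 105, 86 and 129, and 87 and 78 reads in the same order. Both copies were thus in use in all 4 libraries, with 5A the more frequent on the mean of its junctions.

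The share of 5N, from the mean of its junction reads over the sum for both copies, was 39.4% in NesKO (95% Wilson interval 32.0% to 47.7%) and 30.8% in the E18 WT (24.3% to 38.6%). At P1 it was 44.9% in EmxKO (38.1% to 51.9%) and 39.8% in the library labelled WT (32.1% to 48.2%). The remainder, the 5A share, was 60.6%, 69.2%, 55.1% and 60.2%. The knockout library had the higher 5N share at both stages, by 8.58 points at E18 (Fisher's exact test, two-sided, Benjamini-Hochberg adjusted p = 0.768 over 297 exon pairs) and by 5.09 points at P1 (adjusted p = 0.881 over 311), and neither passed the test. Over all pairs tested, 14.1% differed by 10 points or more at E18 and 15.8% at P1. The E18 difference hung on the junction used, at 19.9 points from the upstream junction alone (Fisher's exact test, adjusted p = 0.0101) and -4.02 points from the downstream junction alone, and the P1 difference ranged from 2.57 points downstream to 12.5 points with the lower of both junctions. How reads with short overhangs were assigned between the copies was not tested. Between the control libraries the 5N share was 8.99 points higher at P1 than at E18 (Fisher's exact test, adjusted p = 0.299), with 29.1% of pairs past 10 points.

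**Figure D1:**
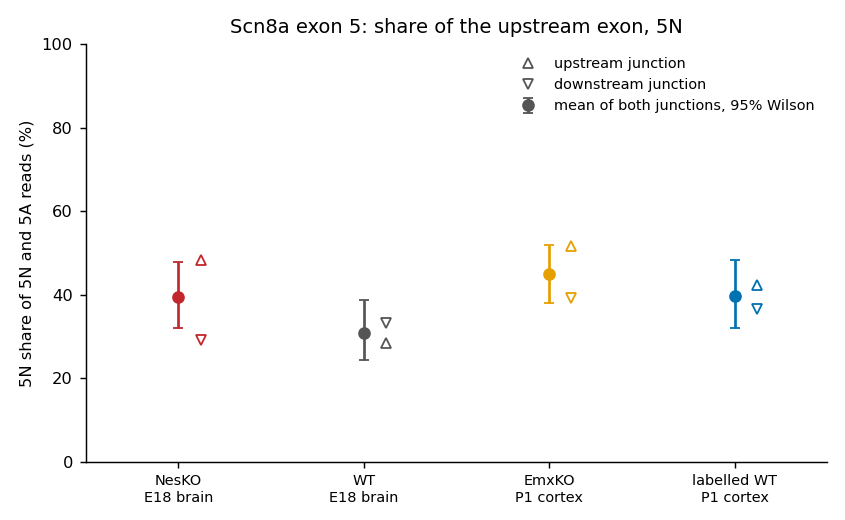
Share of *Scn8a* exon 5N among reads of 5N and 5A (vertical axis, percent) in each library. Filled points are the mean of both junctions with 95% Wilson intervals, which overlap between knockout and control at both stages, and triangles are the upstream and downstream junctions taken alone, which part most in NesKO.

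SpliceTrap's own PSI for the *Scn8a* 5N trio was 74.1% in NesKO, 64.8% in the E18 WT, 99.9% in EmxKO and 74.3% in the P1 library labelled WT. It differed by 9.3 points at E18 and 25.6 points at P1, although no read in any library joined exon 4 to exon 6, so the junction reads alone gave 100% inclusion in every library. The 5A trio was at 99.9% in all 4. The *Scn2a* 5N trio was at 98.4%, 95.6%, 99.7% and 96.2%, with 1, 2, 1 and 4 skipping reads. The *Scn3a* 5A trio was at 89.2% in NesKO against 99.9% in the E18 WT, a difference of -10.7 points that rested on 1 skipping read against none (Fisher's exact test, adjusted p = 1), and at 97.8% and 98.6% at P1. The *Scn1a* exon was at 99.9% in every library.

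*Scn8a* exon 18A, a 123 nt coding exon at mm9 chr15:100854692-100854814, was partly skipped in all 4 libraries. By the customary numbering it is exon 18, and it is exon 21 of 27 in the transcript Scn8a-201. It is shown with a 68 nt exon that GENCODE places 354 bases upstream in the noncoding transcript Scn8a-209, between the same neighbors and in place of 18A. Read in the frame of the preceding exon, the 68 nt exon has a stop codon beginning at base 28, in capitals, and 18A has 0.

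Scn8a exon 18A, chr15:101024261-101024383, GRCm38, plus strand: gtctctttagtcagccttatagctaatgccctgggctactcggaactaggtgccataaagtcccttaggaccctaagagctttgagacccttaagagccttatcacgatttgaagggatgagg
Scn8a 68 nt exon upstream of 18A, chr15:101023839-101023906, GRCm38, plus strand: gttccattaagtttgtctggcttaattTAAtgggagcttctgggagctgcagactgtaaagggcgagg

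No trio was matched to the 68 nt exon, so the split of reads between the alternative versions of exon 18 was not analysed here, and inclusion of 18A was measured against its skipping. The upstream, downstream and skipping junctions of 18A had 166, 70 and 13 reads in NesKO and 183, 46 and 20 in the E18 WT. They had 136, 100 and 70 reads in EmxKO and 100, 75 and 93 in the P1 library labelled WT. On the mean of the inclusion junctions, skipping was lower in whole brain at E18 than in P1 cortex. At each stage the knockout library had fewer skipping reads than its control. The upstream junction had more reads than the downstream one in every library. From the downstream junction alone, inclusion at E18 was 84.3% in NesKO and 69.7% in the WT.

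PSI of 18A was 74.0% in NesKO and 67.0% in the E18 WT, and 52.8% in EmxKO and 41.0% in the P1 library labelled WT. The knockout library was higher by 7.0 points at E18 (Fisher's exact test on the reads, unadjusted p = 0.266, adjusted p = 1) and by 11.8 points at P1 (unadjusted p = 0.00657, adjusted p = 0.638). The P1 difference passed 10 points but not the adjusted test. From junction reads alone, inclusion was 90.1% (95% Wilson interval 83.8% to 94.1%) in NesKO, 85.1% (78.2% to 90.2%) in the E18 WT, 62.8% (55.7% to 69.4%) in EmxKO and 48.5% (41.4% to 55.9%) in the P1 library labelled WT. Each junction taken alone gave a higher value in the knockout library, by 2.59 points (upstream) and 14.6 points (downstream) at E18 and by 14.2 points with either at P1. The knockout effects at the stages did not pass a test of their difference (Wald chi-square on the log odds ratios, unadjusted p = 0.761, adjusted p = 1).

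Between the control libraries, 18A was 26.0 points lower in P1 cortex than in E18 brain, with a Fisher's exact test adjusted p of 1.8e-09. This was the only one of 105 *Scn* trios to pass the adjusted test in that comparison, against 0.952% of all trios past both 10 points and the adjusted test. Since the P1 library labelled WT carried partial skipping of *Ptbp2* exon 4, and tissue and protocol differ, stage is not the only difference between these libraries.

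The homologous 123 nt exon had almost no skipping reads in the other genes. In *Scn2a* no skipping read was found among 482, 610, 1053 and 1109 junction reads in NesKO, E18 WT, EmxKO and the P1 library labelled WT. Taken as 3 reads over the mean of the inclusion junctions, a count of 0 there allows skipping of up to 1.24%, 0.984%, 0.569% and 0.541%. In *Scn3a* none was found among 283, 452, 617 and 809, which by the same rule allows up to 2.11%, 1.33%, 0.971% and 0.741%. *Scn1a*, with 26, 48, 69 and 71 junction reads, had 1 skipping read, in the E18 WT. By that rule a count of 0 there allows up to 23.1% in NesKO, 8.57% in EmxKO and 8.33% in the P1 library labelled WT. The upper Wilson limit of skipping was 22.8% in NesKO and 19.5% in the E18 WT. At E18 the *Scn1a* reads therefore could not tell its skipping from that of 18A, which was 9.92% in NesKO and 14.9% in the E18 WT.

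**Figure D2:**
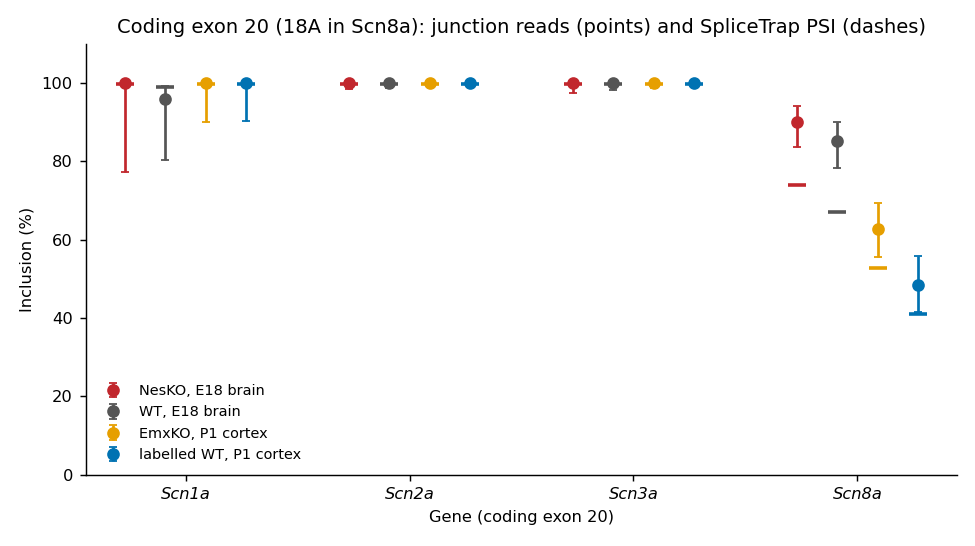
Inclusion of the 123 nt exon (coding exon 20) in each gene and library. Points are junction reads with 95% Wilson intervals and dashes are SpliceTrap PSI, and only *Scn8a* has points below 95%, from 90.1% in NesKO to 48.5% in the P1 library labelled WT, while the *Scn1a* intervals at E18 are wide enough to reach the *Scn8a* points.

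Most *Scn* exons were included almost completely in every library. At least 20 junction reads were present for 104, 107, 108 and 106 trios in NesKO, E18 WT, EmxKO and the P1 library labelled WT, and 96, 100, 100 and 97 of these had a PSI of 99% or more. Of the trios with 20 reads in both libraries, 97 of 104 differed by less than 1 point at E18 and 97 of 106 at P1.

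At E18, 1 trio was at least 10 points lower in NesKO, the *Scn3a* 5A trio described above, and 0 were higher. Of all trios tested, 2.4% differed that much, and 0.156% also passed the adjusted test. At P1, 2 were higher in EmxKO, *Scn8a* 5N and 18A, and 1 was lower, against 1.52% and 0.201% of all trios. No *Scn* trio passed the adjusted Fisher's exact test in either comparison, and at an unadjusted p under 0.05 there were 0 at E18 and 1, *Scn8a* 18A, at P1. The trio with the lower value at P1 was a 282 nt exon of *Scn1a*, coding exon 21, at mm9 chr2:66126931-66127212. It was at 85.8% in EmxKO and 99.1% in the P1 library labelled WT, with 5 skipping reads against 1 (Fisher's exact test, adjusted p = 1), and had fewer than 20 reads at E18. A 142 nt exon of *Scn1a*, coding exon 8 at mm9 chr2:66166462-66166603, had skipping reads in all 4 libraries, named here after its values were seen. It had 3, 2, 2 and 4 skipping reads among 29, 35, 43 and 65 in NesKO, E18 WT, EmxKO and the P1 library labelled WT, a skipped share of 18.8%, 10.8%, 8.89% and 11.6%. Its PSI was 6.3 points lower in NesKO and 3.8 points higher in EmxKO than in the controls, and neither difference passed Fisher's exact test (adjusted p = 1 for both).

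**Figure D3:**
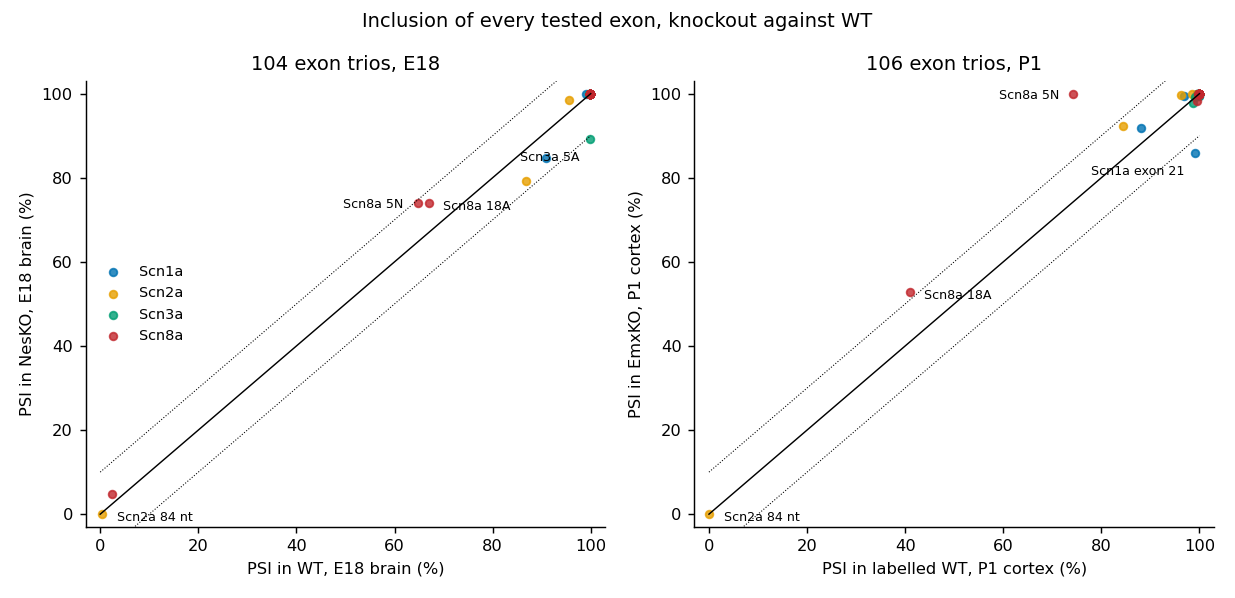
PSI of every *Scn* trio with at least 20 junction reads, control on the horizontal axis and knockout on the vertical axis, for E18 (104 trios) and P1 (106 trios). The solid line is equality and the dotted lines are 10 points away, and almost all trios crowd at full inclusion in the upper right corner.

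None of the exons labelled cassette differed by 10 points where there were enough reads to test. The 271 nt *Scn1a* exon, coding exon 25, was at 99.9% in all 4 libraries with 0 skipping reads. The 84 nt *Scn2a* exon, found in the annotated nonsense-mediated decay transcript Scn2a-208, was at 0.1%, 0.4%, 0.1% and 0.1% in NesKO, E18 WT, EmxKO and the P1 library labelled WT, with 191, 288, 475 and 521 skipping reads. A 150 nt untranslated exon near the start of *Scn8a* had 4.9% in NesKO and 2.3% in the E18 WT in the trio with enough reads at E18. From junction reads alone these were 15.6% and 9.43%, on 26 and 29 reads. At P1 this trio was not tested, with 16 reads in the library labelled WT, and the other trio of the exon had too few reads at both stages.

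Between the control libraries, 1 trio was at least 10 points higher at P1 and 2 were lower, against 4.28% of all trios. Beside 18A these were coding exons 10 and 12 of *Scn2a*. The 288 nt coding exon 10 had a PSI of 79.3% in NesKO, 86.9% in the E18 WT and 99.9% in both P1 libraries, and the 133 nt coding exon 12 had 99.9% in both E18 libraries, 92.3% in EmxKO and 84.4% in the P1 library labelled WT. Neither had a skipping read in any library.

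Expression was read from the junctions as mean reads per distinct junction, scaled to 1000000 junction reads, and all levels below are on this scale. *Scn3a* was at 2.66 in NesKO and 4.27 in the E18 WT, and at 2.70 in EmxKO and 3.74 in the P1 library labelled WT. The fold of knockout over control was 0.622 at E18 (exact interval of the read ratio, 0.596 to 0.649) and 0.722 at P1 (0.698 to 0.746). All 26 of its junctions were lower in the knockout library at both stages. *Scn3a* was the only member past 1.5-fold in either knockout comparison, at E18, where 5.65% of genes were that much lower.

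*Scn2a* was at 2.84 in NesKO and 3.94 in the E18 WT, a fold of 0.722 (0.692 to 0.752), with 25 of 26 junctions lower. At P1 it was at 4.93 in EmxKO and 5.41 in the library labelled WT, a fold of 0.912 (0.889 to 0.935), with 19 of 26 lower. *Scn1a*, the least abundant, was at 0.422 and 0.613 at E18, a fold of 0.689 (0.617 to 0.769), and at 0.438 and 0.588 at P1, a fold of 0.745 (0.685 to 0.810). *Scn8a* did not share the lower level, at 3.38 in both E18 libraries, a fold of 1.00 (0.964 to 1.04), and at 2.44 in EmxKO and 2.17 in the P1 library labelled WT, a fold of 1.12 (1.08 to 1.16). At P1, 17.3% of genes were 1.5-fold or more lower. These intervals cover counting error only, and in bulk tissue fewer cells of a type and less RNA per cell cannot be told apart.

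**Figure D4:**
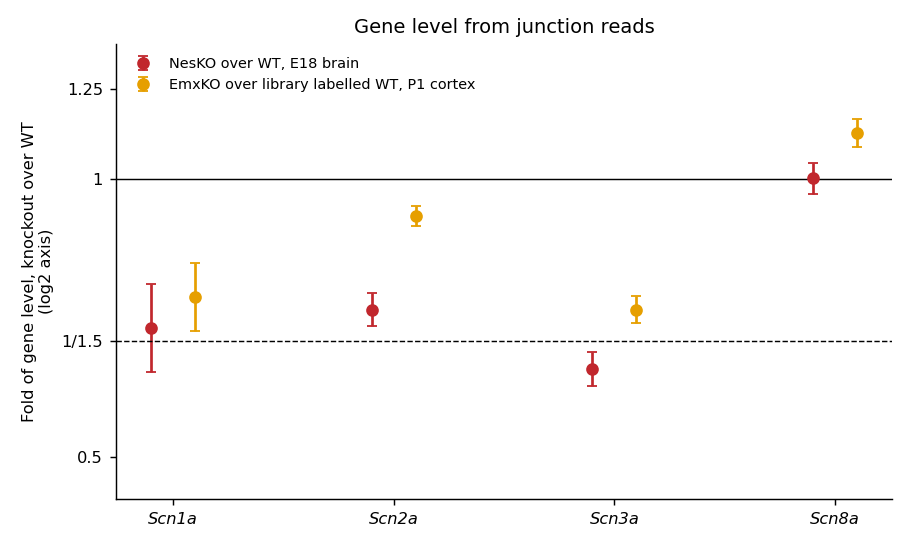
Fold of knockout over control in gene level (log2 axis) for the 4 genes, with exact 95% intervals of the read ratio that cover counting error only. The dashed line is 1.5-fold lower, which *Scn3a* alone passed, at E18 with 0.622, while *Scn8a* stood at 1.00 and 1.12.

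Cell type markers also differed between the same libraries. The summed level of the 7 neuronal markers was 483 in NesKO and 519 in the E18 WT, with 6 of 7 lower, and 730 in EmxKO and 666 in the P1 library labelled WT, with 4 of 7 lower. The 4 excitatory cortical markers measured of 5 summed to 23.5 and 30.4 at E18, with 4 lower, and to 52.7 and 59.2 at P1, with 3 lower. The 3 microglial markers measured of 4 summed to 8.46 and 5.54 at E18 and to 3.97 and 2.44 at P1, and 3 of 3 were higher in the knockout at each stage. The markers of hindbrain and other regions outside cortex, 5 measured of 6, summed to 7.68 and 12.0 at E18, with 3 lower and 2 higher, and to 0.915 and 1.98 at P1, with 2 lower and 1 higher among levels that were near 0 apart from *Slc17a6*. The glutamate transporter gene *Slc17a6* carried most of that sum, at 0.582-fold and 0.461-fold. It had reads in P1 cortex too, at 0.909 in EmxKO and 1.97 in the library labelled WT. Which cells these reads came from was not tested. The neuronal sum was carried by the tubulin gene *Tubb3*, at 0.970-fold and 1.26-fold. The synaptic genes of that list did not move alike. *Snap25*, *Syt1* and *Syp* were at 0.468, 0.469 and 0.850-fold at E18 and at 0.506, 0.948 and 1.22-fold at P1. The 4 astrocyte markers summed to 20.6 in NesKO and 25.0 in the E18 WT, with 3 lower and 1 higher. At P1 they summed to 20.4 in EmxKO and 18.1 in the library labelled WT, with 1 lower and 3 higher. Of these, *Gfap* was at 2.78-fold at E18 and 2.35-fold at P1, and *Aqp4* at 0.611-fold and 0.569-fold. The 3 interneuron markers measured of 4 summed to 16.8 and 19.3 at E18 and to 11.0 and 11.5 at P1. At each stage 2 of them were lower and 1 was higher. The progenitor sum was at 0.913-fold and 0.964-fold, and the oligodendrocyte lineage sum at 0.792-fold and 1.28-fold. The endothelial sum was at 0.871-fold and 1.16-fold, and the red blood cell sum at 1.30-fold and 0.956-fold. The part of all these markers in the *Scn* levels was not tested.

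Between the control libraries, *Scn8a* was lower in P1 cortex than in E18 brain, at 0.644-fold (0.620 to 0.668), where 24.9% of genes were 1.5-fold or more lower. *Scn2a* was higher at 1.37-fold (1.33 to 1.42), short of 1.5-fold, which 20.6% of genes reached upward. *Scn3a* was at 0.875-fold and *Scn1a* at 0.960-fold. The *Scn2a* value depended on the part of the gene, at 2.20-fold over its 5′ junctions and 1.00-fold over its 3′ junctions, divided evenly by order. Without junction 10, the *Scn2a* junction with the most reads, the 5′ value was 1.61-fold and that of the whole gene 1.18-fold.

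Reads were uneven along the genes. In *Scn2a* the ratio of the mean reads on the 5′ junctions to that on the 3′ junctions was 0.425 in NesKO and 0.482 in the E18 WT but 1.06 and 1.05 in the P1 libraries, and without junction 10 it was 0.429, 0.480, 0.803 and 0.772, while the median over 2252 genes with at least 20 junctions was 0.689, 0.747, 0.744 and 0.747. *Scn8a* stood at 0.357 and 0.358 at E18 and 0.488 and 0.498 at P1, and *Scn3a* at 0.524, 0.510, 0.806 and 0.759. Within a stage, knockout and control differed most in *Scn1a* at E18, at 0.718 and 0.571. At E18 the *Scn2a* ratio and the median over the 2252 genes were lower in NesKO than in the WT.

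**Figure D5:**
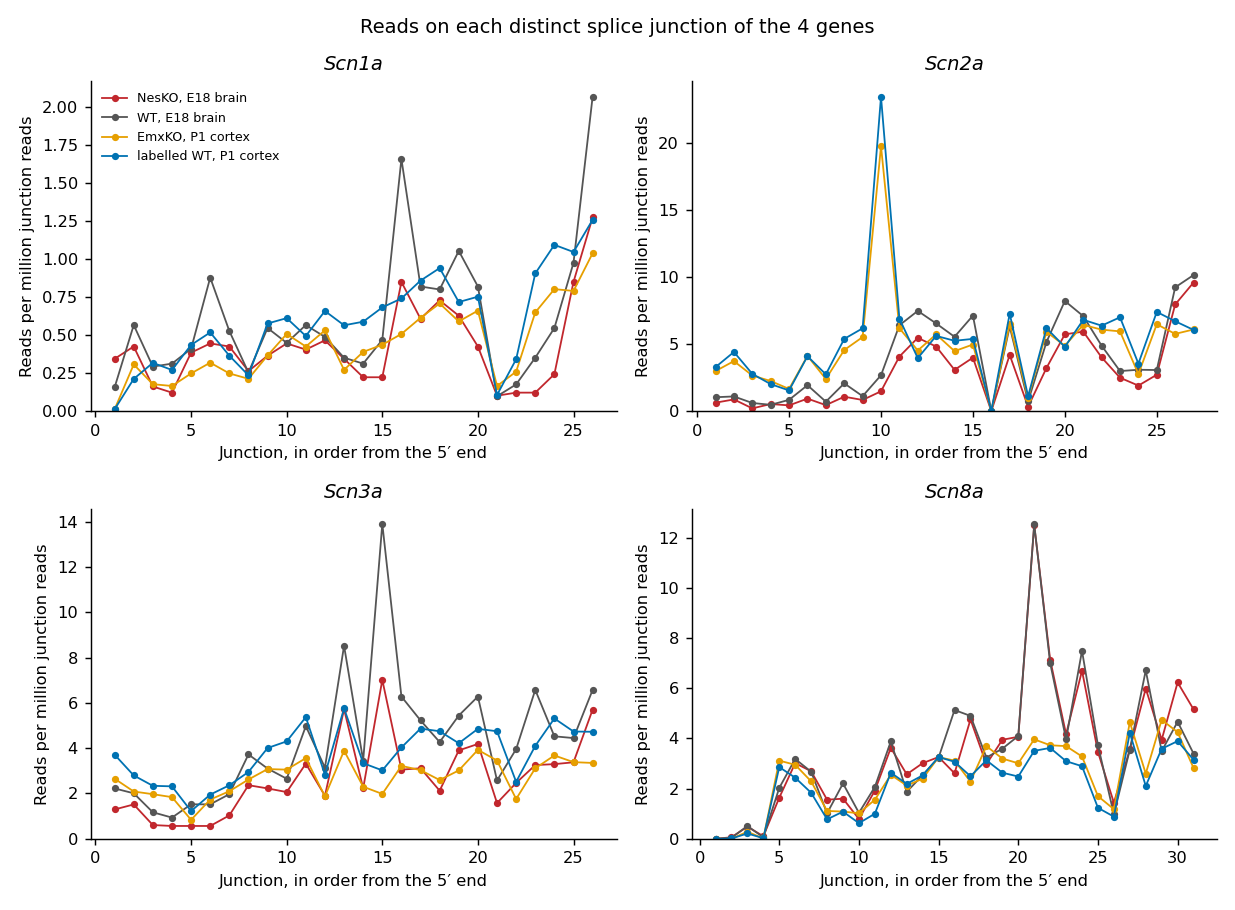
Reads, scaled to 1000000 junction reads, on each distinct junction of the 4 genes, in order from the 5′ end, in the 4 libraries. *Scn3a* lies lower in each knockout library than in its control at every junction, *Scn8a* junctions lie on either side of equality at E18, from 0.509 to 1.54-fold, and 1 *Scn2a* junction reaches 23.4 in the P1 library labelled WT.

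The genes share long identical stretches, which limits how uniquely 100 nt reads can be placed. The longest stretch was 188 bases between *Scn1a* and *Scn2a* and 143 bases between *Scn3a* and either, but at most 47 between *Scn8a* and another member. Of 8836 stretches of 100 bases in the main *Scn2a* transcript, 133 recurred in another member, as did 97 of 8188 in *Scn1a*, 96 of 8451 in *Scn3a* and 0 of 11194 in *Scn8a*. The exons themselves align closely, since 16 of the 24 coding exon positions measured in all 4 genes had the same length in each.

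Trios of 18 other genes of the sodium channel pathway were counted beside the share of all trios. The counts were small, and their difference from that share was not tested. Of 293 trios tested at E18, 6 were higher and 4 lower by 10 points or more in NesKO, or 3.41% against 2.4% of all trios, and none passed the adjusted Fisher's exact test. Of 270 at P1, 5 were higher and 1 lower in EmxKO, or 2.22% against 1.52%, and 1 passed. That was a 27 nt cassette microexon of *Ank3*, which encodes the ankyrin-G scaffold that anchors sodium channels at the initial segment, at mm9 chr10:69443572-69443598. Its PSI was 72.3% in EmxKO and 55.8% in the P1 library labelled WT (Fisher's exact test, adjusted p = 0.000448), and 86.7% in NesKO and 71.1% in the E18 WT (adjusted p = 0.0716).

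In gene level, the beta subunit *Scn3b* was at 0.609-fold in NesKO and 1.21-fold in EmxKO. Among the intracellular fibroblast growth factors that bind the channel, *Fgf13* was at 0.560-fold and 0.929-fold, *Fgf14* at 0.603-fold and 0.700-fold, *Fgf12* at 0.855-fold and 0.620-fold, and *Fgf11* at 0.854-fold and 1.44-fold. The initial segment genes *Ank3*, *Sptbn4* and *Nfasc* were at 0.945, 1.07 and 1.05-fold at E18, and at 1.32, 1.64 and 0.970-fold at P1. The muscle and peripheral alpha subunits *Scn4a*, *Scn7a*, *Scn10a* and *Scn11a* had too few reads to be tested.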

How the data were processed

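PolyA+ RNA was sequenced as paired 100 nt reads, and analysed by the authors with SpliceTrap on mm9. The processing notes also name CASAVA, TopHat and Cufflinks. The deposited tables give for each trio an inclusion fraction before and after SpliceTrap's correction, used here as PSI after multiplication by 100, and the read counts on its 3 junctions. No genome sequence was used, and mm9 and GRCm38 positions were never converted. Junction inclusion was the mean of the inclusion junction counts over its sum with the skipping count. Trios needed 20 or more junction reads in each library of a comparison and were called at 10 PSI points. Fisher's exact test on rounded reads was adjusted by Benjamini-Hochberg over all such trios of the whole table, or over all pairs. Gene levels took genes with at least 5 junctions and 100 reads, called at 1.5-fold without a p-value. Tests were checked on simulated reads. Python 3.11.15 with scipy 1.17.1 was used. The members and lists were chosen with earlier results of these data known. Named trios were those of the exon pairs, those past 10 points, and those labelled cassette, and for other pathway genes the largest change that passed the test. Some exon sequences are not reported here.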

Additional observations from a re-analysis of the deposited data

How the results depend on the processing

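The single *Scn* trio past 10 points at E18 fell to 0 with PSI from junction reads alone, with a threshold of 20 points, or with an adjusted p below 0.05 required. The 3 at P1 became 2 with PSI from junction reads alone, and also 2 with a minimum of 50 junction reads. They became 1 at 20 points and 0 when the adjusted p was required. The trio left at 20 points was *Scn8a* 5N, whose 25.6 points came without a skipping read in any library. The *Scn8a* 5N share at E18, 8.58 points higher in NesKO, was 19.9 points higher from the upstream junction alone, which passed the Fisher's exact test (adjusted p = 0.0101), -4.02 points from the downstream junction alone, and 3.05 points higher with the lower junction. At P1 the difference of 5.09 points was 12.5 with the lower junction, 9.30 upstream and 2.57 downstream, none of which passed the test. The sign of exon 18A did not change under any alternative run. In gene level at E18, *Scn1a* passed 1.5-fold from its 3′ junctions alone (0.630-fold) and *Scn2a* from its 5′ junctions alone (0.660-fold), and without its junction with the most reads *Scn2a* was at 0.726-fold over the gene and 0.670-fold over its 5′ junctions, short of 1.5-fold, alternatives that were chosen after seeing the data. The cause of these shifts was not tested. The other *Scn* exon pairs did not have matched trios for both copies, so they had no pair share and no alternative run. No paired analysis was possible because each group held 1 library, and for the same reason no library could be left out. Depth limited *Scn1a* most, with a median of 40 junction reads per trio in NesKO against 237 for *Scn2a*.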

Other observations

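The junction leaving coding exon 10 of *Scn2a* had 73 reads in NesKO, 137 in the E18 WT, 1675 in EmxKO and 1994 in the P1 library labelled WT. In the P1 libraries the junctions on either side of it had between 468 and 587 reads, so it stood apart in P1 cortex in knockout and control alike.

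The junction from the 84 nt *Scn2a* exon to the next exon was listed with 0, 2, 0 and 0 reads in the trio of that exon, and with 16, 37, 82 and 94 reads in another trio in which the competing upstream exon is not an alternative. The exons share their last 2 bases. Junction counts in these tables thus depend on the trio in which a junction is listed.

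Inside the *Scn3a* span, 8 trios were matched to no transcript. They include a trio labelled as a retained intron at mm9 chr2:65363844-65364553, between exon 4 and exon 5A. Its PSI was 27.7% in NesKO, 14.1% in the E18 WT, 26.5% in EmxKO and 30.5% in the P1 library labelled WT. The stretch is on the upstream side of 5A, where the 5N copy lies. Whether its reads came from 5N or from unspliced RNA was not tested. The E18 difference of 13.6 points did not pass the Fisher's exact test (adjusted p = 1).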
